A study of Homo sapiens with 4 samples.

Results

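The genes described here are the nuclear effectors of canonical WNT signalling, namely the DNA-binding factors TCF7, LEF1, TCF7L1 and TCF7L2, the co-activator beta-catenin (CTNNB1) and the TLE co-repressors TLE1, TLE2, TLE3 and TLE4. They were found by matching these 9 symbols to the Ensembl identifiers of the deposited tables, and all 9 were among the 57773 genes listed. Polyadenylated RNA was sequenced from MIA-PaCa2, an established human pancreatic cancer cell line, in 2 groups of 2 libraries each. The resistant group held 2 populations obtained after 2 months in rising doses of AMG510 (sotorasib), a small-molecule cancer drug, up to a final 5 µM. Whether the cells were in the drug at harvest is not stated. The other group held 2 untreated populations of the same line, in the same medium, with no vehicle named. The populations come from a single cell line, and the labels give no number of clones. For resistant replicate 2 the treatment tag gives AMG511, but AMG510 stands in its title and in the series text, and the library was kept as resistant.

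When a WNT ligand is absent, beta-catenin is marked for degradation by a complex of APC, AXIN, GSK3 and CK1, and TCF/LEF factors on DNA are bound by TLE proteins, which bring in histone deacetylases. When the pathway is active, beta-catenin accumulates, enters the nucleus and replaces TLE on the same factors, with BCL9 and PYGO as further co-activators. The 4 TCF/LEF factors share a DNA-binding HMG box but are not equivalent: TCF7L1 is known mainly as a repressor, LEF1 mainly as an activator, and TCF7 and TCF7L2 act in either way depending on the isoform. TCF7 and LEF1 can also be made as short forms without the beta-catenin binding region, which values per gene cannot tell apart from the long forms.

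TCF7 fell by a factor of 32.3 in the resistant cells, while LEF1 and TCF7L1 rose and CTNNB1 fell. By level per length TCF7 was sixth of the 9 genes in resistant cells and first in untreated cells, and TCF7L1 held most of the summed TCF/LEF level in resistant cells. The 3 tested TLE genes did not pass the test, with TLE1 4.71-fold apart between the 2 resistant libraries, and TLE4 had 0 counts in every library. Genes with an adjusted p under 0.05 were called (quasi-likelihood test of edgeR, adjusted by Benjamini-Hochberg over all tested genes). Of the 8 members with enough counts to test, 2 were called higher and 2 lower, and 4 did not pass. Among all 16090 tested genes 34% were called, 16.6% higher and 17.4% lower, and from 8 genes nothing is read about the family as a whole. In 7 of the 8 tested members, 2 higher and 5 lower in resistant libraries, the groups' values were apart without overlap, as in 70.9% of tested genes. LEF1, called higher and among these 7, had enough counts to test only in the resistant libraries. The median log2 fold change (resistant over untreated) was −0.45 over the 8 members and −0.01 over all tested genes. Without untreated replicate 1 only TCF7 and LEF1 were called, 2 members in place of 4. In bulk RNA, fewer cells expressing a gene and less of its RNA per cell cannot be told apart.

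Library totals lay between 30146559 and 33074965 expected counts in the resistant group and between 35747414 and 38052558 in the untreated group. Levels are given as CPM, rounded counts scaled to library size after adjustment for library composition, and group values as mean ± SD over 2 libraries. The series text speaks of 2 populations in each group but does not say from when they were cultured apart, and p-values reflect only how far these libraries differ, which may in part be technical.

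**Figure D1:**
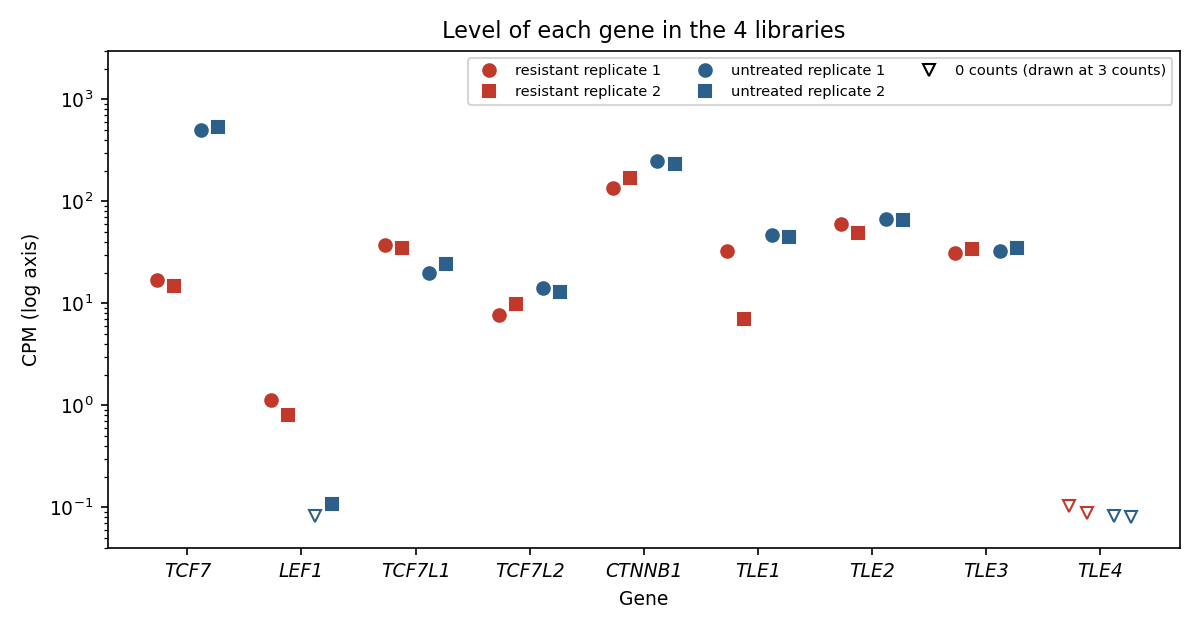
CPM (log axis) of the 9 genes in each library, resistant libraries in red to the left of untreated libraries in blue, circles for replicate 1 and squares for replicate 2; open triangles mark 0 counts and are drawn at the level of 3 counts. TCF7 lies near 16 CPM in resistant and near 517 CPM in untreated libraries, and TLE1 of resistant replicate 2 lies at 6.96 CPM, apart from the other 3 libraries.

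TCF7 (ENSG00000081059, chromosome 5), the TCF/LEF factor best known from T cells, had 17.1 and 15.0 CPM in the resistant libraries, against 503.9 and 531.0 CPM in the untreated libraries. In counts these were 495 and 505 in resistant libraries, against 18610 and 19879 in untreated libraries. Both resistant values were far below both untreated ones and lay close to each other. TCF7 fell by 5.01 on the log2 scale (SE 0.19, edgeR adjusted p = 1.58e-07). The fitted log2 fold change stayed between −5.10 and −4.92 in the 12 alternative analyses, with adjusted p between 8.26e-164 and 1.67e-06. Only 61 of the 16090 tested genes had a lower log2 fold change. In untreated cells 1.45% of tested genes had a mean CPM at least as high as TCF7, and in resistant cells 52.4%. TCF7 shares 210 of its 10063 annotated exon bases with SKP1, a gene of the ubiquitin ligase SCF on the opposite strand. SKP1 had 4093 and 5872 counts in the resistant libraries and 13111 and 11471 in the untreated libraries. The strand setting of the counting is not given in the sources used here, so the values of TCF7 are uncertain to the extent that it shares reads with SKP1.

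The 3 genes whose profile over the 4 libraries lay nearest to that of TCF7, by Euclidean distance of centred log2 CPM among 10041 candidates, were SNCG (gamma-synuclein), SNAP25-AS1 (a long non-coding RNA) and CALB2 (calretinin, a calcium-binding protein). Their distances were 0.26, 0.40 and 0.53 in log2 units. SNCG had 1.41 and 0.977 CPM in resistant libraries, against 34.9 and 40.4 CPM in untreated libraries. CALB2 had 10.6 and 5.51 CPM in resistant libraries, against 236.4 and 265.0 CPM in untreated libraries. Over 4 libraries in 2 groups this measure rests mainly on the size of the group difference, a log2 fold change of −4.98 for SNCG, −5.10 for SNAP25-AS1 and −4.97 for CALB2.

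The promoters of TCF7 and LEF1, the members that moved most and in opposite directions, are shown as RefSeq gives them on build GRCh38.p14, from 250 bases before to 50 bases after each annotated start, 5′ to 3′ on the gene's strand. Capitals mark matches, on either strand, to any of 4 motifs: CTTTGAT and CTTTGAA (TCF/LEF sites), CCGGAAG (a site of ETS factors) and TGANTCA (an AP-1 site).
TCF7 start 1, chr5:134115363-134115662, plus strand: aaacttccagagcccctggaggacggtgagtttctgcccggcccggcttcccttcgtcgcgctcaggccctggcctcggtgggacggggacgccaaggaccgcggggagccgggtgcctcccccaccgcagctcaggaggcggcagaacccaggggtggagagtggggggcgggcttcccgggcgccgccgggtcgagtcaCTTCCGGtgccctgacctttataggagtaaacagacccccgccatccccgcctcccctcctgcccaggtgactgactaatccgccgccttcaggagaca
TCF7 start 2, chr5:134123368-134123667, plus strand: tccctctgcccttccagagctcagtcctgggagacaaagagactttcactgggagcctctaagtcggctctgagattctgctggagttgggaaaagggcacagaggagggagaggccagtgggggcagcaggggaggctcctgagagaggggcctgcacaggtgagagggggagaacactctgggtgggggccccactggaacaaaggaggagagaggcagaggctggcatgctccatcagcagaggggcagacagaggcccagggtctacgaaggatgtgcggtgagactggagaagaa
LEF1, chr4:108166252-108166551, minus strand: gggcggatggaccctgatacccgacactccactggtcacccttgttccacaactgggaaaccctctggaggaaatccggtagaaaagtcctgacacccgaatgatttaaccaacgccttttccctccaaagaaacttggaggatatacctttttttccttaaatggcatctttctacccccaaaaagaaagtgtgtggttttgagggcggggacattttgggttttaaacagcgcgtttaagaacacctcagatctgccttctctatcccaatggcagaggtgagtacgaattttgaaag
The upstream TCF7 start holds a single match, the ETS motif read on the opposite strand, 49 bases before the start. The second TCF7 start and the LEF1 start hold none of the 4 motifs. The RefSeq table had 16 such entries for the 9 members. Of these, 1 held CCGGAAG, the TCF7 entry shown, and 1 held CTTTGAA, a TLE4 entry 114 bases before its start, and the matches did not overlap. Among all 35116 promoter entries 10.3% held CCGGAAG, 7.71% TGANTCA, 4.43% CTTTGAA and 2.62% CTTTGAT. The upstream TCF7 entry was 69.7% G and C with 25 CpG dinucleotides, the second TCF7 entry 61.0% with 3, and the LEF1 entry 47.0% with 9. Over all entries the medians were 58.7% and 14. The libraries give no measure of which start was used.

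LEF1 (ENSG00000138795, chromosome 4), the partner of beta-catenin best known from lymphoid and hair follicle cells, was near the limit of detection. It had 1.14 and 0.799 CPM in the resistant libraries, from 33 and 27 counts, against 0 and 0.107 CPM in the untreated libraries, from 0 and 4 counts. Both resistant values lay above both untreated ones, and all 4 were low. LEF1 rose (log2 fold change 4.08, SE 0.90, edgeR adjusted p = 0.00637). It had enough counts to be tested only through the resistant libraries. A gene this low in untreated libraries could be tested only if it was higher in resistant ones, so its direction was set beforehand. Its call and its lack of overlap are therefore no independent support for a rise. The ratio of the summed counts, scaled for library size, was 17.8 with an exact 95% conditional binomial interval of 6.59 to 67.3, which covers counting error only. The log2 fold change was 3.16 without untreated replicate 1 (adjusted p = 0.0434, within a range of 2.17e-05 to 0.0434 over 11 alternatives). Without untreated replicate 2 the untreated side had 0 counts, and LEF1 was at least 11.9-fold higher against 3 counts in that library. An antisense transcript, LEF1-AS1, had 0 counts in both resistant libraries and 5 and 0 in the untreated ones.

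TCF7L1 (ENSG00000152284, chromosome 2), the family member known as a repressor in stem and skin cells, had 37.5 and 34.6 CPM in the resistant libraries, against 19.8 and 24.5 CPM in the untreated libraries. Both resistant values were above both untreated ones. TCF7L1 rose by a factor of 1.63 (log2 fold change 0.70, SE 0.19, edgeR adjusted p = 0.0163). It was not called without untreated replicate 1 (0.58 on the log2 scale, adjusted p = 0.111, range 0.00381 to 0.111 over 12 alternatives).

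TCF7L2 (ENSG00000148737, chromosome 10), the main family member of intestinal epithelium and a known diabetes risk gene, had 7.76 and 9.83 CPM in the resistant libraries, against 14.0 and 12.9 CPM in the untreated libraries. Its values did not overlap between groups, and it did not pass the test (log2 fold change −0.61, SE 0.25, edgeR adjusted p = 0.0802). The adjusted p lay between 0.0721 and 0.368 in the 12 alternatives. An antisense transcript, AL158212.2, shares 300 of its 6736 exon bases and had 11 and 2 counts in resistant and 1 and 7 in untreated libraries.

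**Figure D2:**
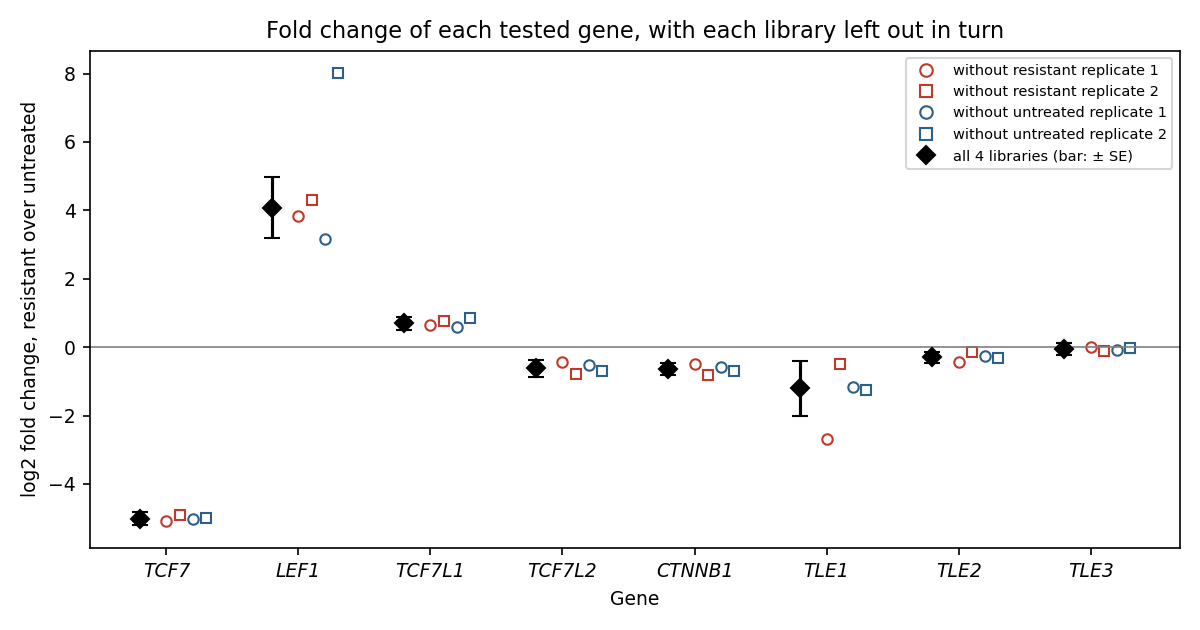
Log2 fold change (resistant over untreated) of the 8 tested genes, black diamonds with ± SE bars for all 4 libraries and open symbols for the fits with 1 library left out. TCF7 stays between −5.10 and −4.92 in these fits, TLE1 moves between −2.700 and −0.48, and the LEF1 point at 8.01 rests on an untreated library with 0 counts and is no measure of size.

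To set the members beside one another, CPM were divided by each gene's annotated exon length, which gives RPKM (CPM per kilobase), and each level was expressed as a share of its family's sum. TCF7 held 14.1% ± 0.782 of the summed TCF/LEF level in resistant libraries and 88.0% ± 0.589 in untreated libraries (SD, n = 2 each). TCF7L1 held 72.6% ± 1.26 in resistant libraries and 8.56% ± 0.922 in untreated libraries. TCF7L2 held 11.7% ± 2.38 in resistant and 3.42% ± 0.356 in untreated libraries, and LEF1 1.60% ± 0.336 in resistant and 0.017% ± 0.023 in untreated libraries. The largest share thus belonged to TCF7L1 in both resistant libraries and TCF7 in both untreated ones. The summed TCF/LEF level was 11.6 and 10.9 RPKM in resistant libraries, against 56.6 and 60.3 RPKM in untreated libraries. The larger shares came with a smaller sum: the RPKM of TCF7L2 was 1.15 and 1.46 in resistant libraries, against 2.08 and 1.91 in untreated ones. The shares are given as a description with no test. The smallest two-sided p that an exact permutation test of 2 against 2 libraries allows is 0.33.

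**Figure D3:**
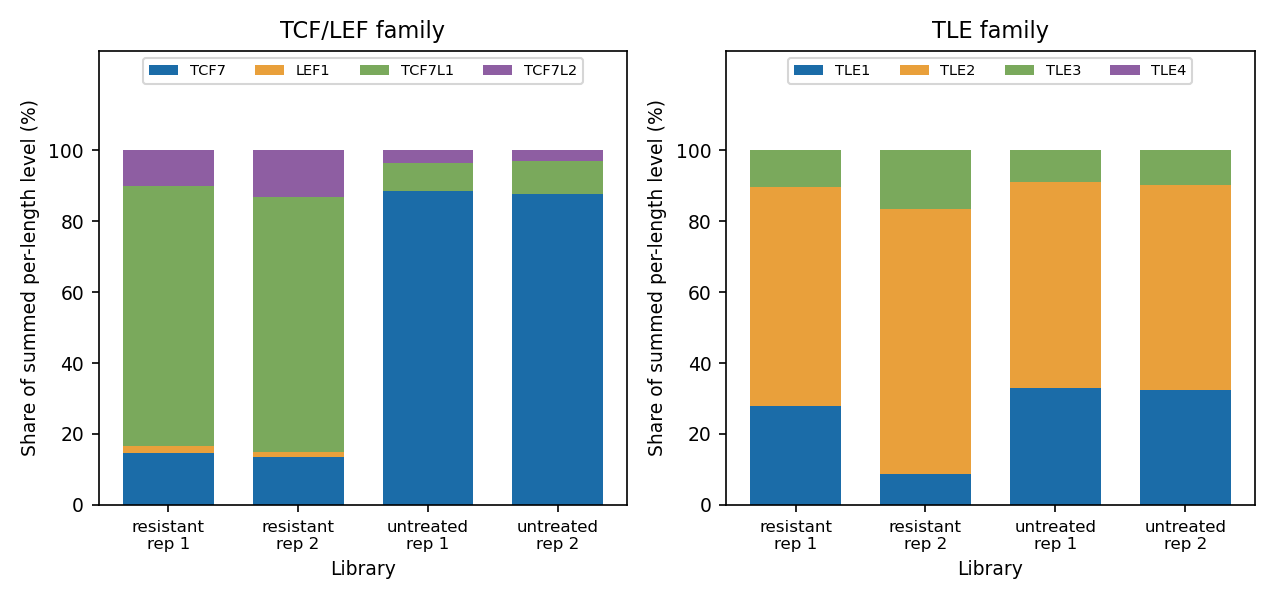
Share (%) of each gene in the summed per-length level of the TCF/LEF family (left) and of the TLE family (right), 1 bar for each library, resistant libraries left of untreated ones. TCF7L1 fills 73.5% and 71.7% of the resistant TCF/LEF bars, TCF7 fills 88.4% and 87.6% of the untreated ones, and TLE1 takes 8.74% in resistant replicate 2.

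CTNNB1 (ENSG00000168036, chromosome 3) encodes beta-catenin, which serves both as the co-activator of TCF/LEF factors and as a link between cadherins and the actin cytoskeleton. It had 134.7 and 169.3 CPM in the resistant libraries, against 246.5 and 230.3 CPM in the untreated libraries. Both resistant values were below both untreated ones. CTNNB1 fell by 0.65 on the log2 scale (SE 0.17, edgeR adjusted p = 0.0152). The call ended without resistant replicate 1 (log2 fold change −0.48, adjusted p = 0.175) and without untreated replicate 1 (−0.58, adjusted p = 0.0874), within a range of 0.00356 to 0.175 over 12 alternatives. Beta-catenin is controlled mainly through the stability of the protein, which these data do not measure.

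The TLE proteins are co-repressors without a DNA-binding domain of their own, recruited by TCF/LEF, HES and RUNX factors. TLE2 (ENSG00000065717, chromosome 19) had 60.1 and 48.9 CPM in the resistant libraries, against 67.8 and 65.7 CPM in the untreated libraries. TLE2 did not pass (log2 fold change −0.29, SE 0.16, edgeR adjusted p = 0.194). TLE3 (ENSG00000140332, chromosome 15) had 31.5 and 34.1 CPM in the resistant libraries, against 32.9 and 35.3 CPM in the untreated libraries. It was the only tested member whose values overlapped between groups, at a log2 fold change of −0.06 (SE 0.17, edgeR adjusted p = 0.827) that was 0.02 without resistant replicate 1. TLE4 (ENSG00000106829, chromosome 9) had 0 counts in all 4 libraries, which allows up to 0.104 CPM in a resistant library and up to 0.0812 CPM in an untreated one (3 counts).

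TLE1 (ENSG00000196781, chromosome 9) differed between the resistant libraries. It had 32.8 CPM in resistant replicate 1 and 6.96 CPM in resistant replicate 2, from 950 and 235 counts, against 46.7 and 44.7 CPM in the untreated libraries, from 1723 and 1675 counts. Both resistant values were below the untreated ones, but they differed by a factor of 4.71. On the log2 CPM scale this difference was 2.23, and 119 of the 16090 tested genes (0.740%) were at least as far apart between the resistant libraries. The untreated libraries differed by 0.06 in log2 for TLE1, a distance that 86.3% of tested genes reached. The test over both did not pass (log2 fold change −1.21, SE 0.79, edgeR adjusted p = 0.329). With resistant replicate 1 left out TLE1 was called, at −2.700 and an adjusted p = 7.22e-19. That fit had a lone resistant library, which is assumed to vary like the other groups. With resistant replicate 2 left out the log2 fold change was −0.48 (adjusted p = 0.0973), and over 12 alternatives the adjusted p lay between 7.22e-19 and 0.735. A processed pseudogene, TLE1P1, had 12 and 3 counts in the resistant and 11 and 13 in the untreated libraries.

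Within the TLE family TLE2 had the highest per-length level in every library, with 61.9% and 74.6% of the sum in resistant libraries, against 58.1% and 57.7% in untreated libraries. TLE1 held 27.8% and 8.74% in resistant libraries, against 32.9% and 32.4% in untreated libraries. TLE3 held 10.4% and 16.6% in resistant libraries, against 9.01% and 9.90% in untreated libraries. The summed TLE level was 24.0 and 16.2 RPKM in resistant libraries, against 28.9 and 28.2 RPKM in untreated libraries. It was thus above the summed TCF/LEF level in both resistant libraries and below it in both untreated ones.

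In resistant cells the order of the per-length levels was TLE2 (13.5 ± 1.96 RPKM, n = 2), CTNNB1 (12.7 ± 2.05), TCF7L1 (8.16 ± 0.458), TLE1 (4.05 ± 3.72), TLE3 (2.59 ± 0.146), TCF7 (1.59 ± 0.149), TCF7L2 (1.31 ± 0.217), LEF1 (0.181 ± 0.0447) and TLE4. In untreated cells it was TCF7 (51.4 ± 1.90 RPKM, n = 2), CTNNB1 (19.99 ± 0.963), TLE2 (16.5 ± 0.361), TLE1 (9.32 ± 0.275), TCF7L1 (5.01 ± 0.758), TLE3 (2.698 ± 0.132), TCF7L2 (2.00 ± 0.121), LEF1 (0.01 ± 0.014) and TLE4. In resistant cells the means of the neighbours TLE2 and CTNNB1, TCF7L1 and TLE1, TLE1 and TLE3, and TCF7 and TCF7L2 differed by less than the sum of their SDs, as did LEF1 and TLE4 in untreated cells. With the longest transcript as length CTNNB1 stood above TLE2 in resistant cells. The other places were the same with either length.

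The genes next to the members on their chromosomes were compared in annotated gene order, taking 5 tested protein-coding genes on each side. Among all tested genes 16.6% were called higher and 17.4% lower. Around TCF7, 4 of 10 neighbours fell, 0 rose and 6 did not pass, with a median log2 fold change of −0.57. The protein-coding genes of chromosome 5 had a median of −0.41 over 577 tested genes. The fallers were PPP2CA (a phosphatase subunit, −1.24), SKP1 (−1.07), VDAC1 (a channel of the outer mitochondrial membrane, −0.94) and HSPA4 (a chaperone, −0.87). The log2 fold change of TCF7 itself was −5.01. A lower median was not particular to TCF7: it was −0.53 around TLE3, −0.41 around TCF7L2, −0.14 around CTNNB1 and −0.10 around TLE2. The median was 0.02 around LEF1, 0.31 around TCF7L1 and 1.01 around TLE4, which shares most of its neighbours with TLE1. Around TLE1, 6 of 10 neighbours rose, 1 fell and 3 did not pass, with a median of 1.01, against 0.04 over 519 tested genes of chromosome 9. GNAQ, a G protein subunit (3.51), and FRMD3, a band 4.1-related protein (3.38), had the largest rises there, from low levels. Their mean CPM were 0.444 and 0.483 in untreated cells and 5.08 and 5.07 in resistant cells. TLE1 itself was lower in each resistant library than in both untreated ones. TLE4, with 0 counts, is the next annotated protein-coding gene to TLE1. TLE2 lies between TLE6 and TLE5, further genes of the TLE family on chromosome 19. TLE6 had 1.41 and 1.92 CPM in resistant libraries, against 7.15 and 12.8 CPM in untreated libraries (log2 fold change −2.58, SE 0.38, edgeR adjusted p = 8.81e-04).

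**Figure D4:**
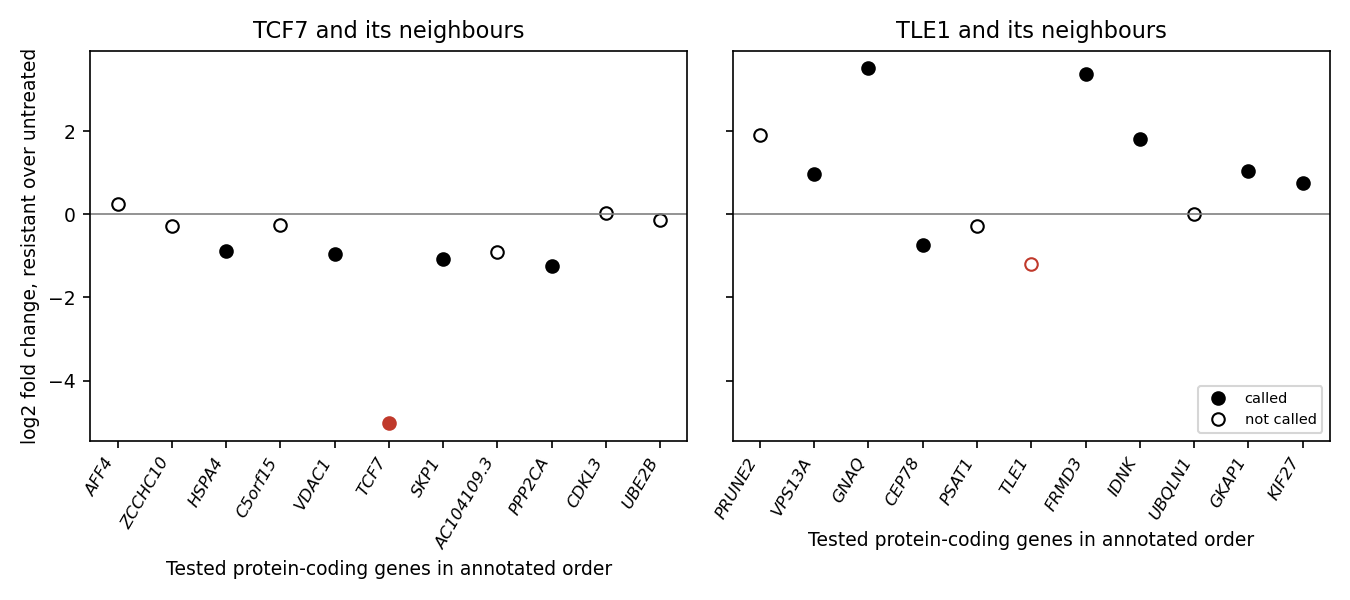
Log2 fold change (resistant over untreated) of TCF7 (left, red) and TLE1 (right, red) and of the 5 nearest tested protein-coding genes on each side, by gene order and not by distance; filled points were called and open points were not. TCF7 at −5.01 lies below all its neighbours (−1.24 to 0.24), and TLE1 at −1.21 lies among neighbours of which 6 rose.

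The rest of the pathway was described with 7 lists, by counts and medians beside those of all tested genes and without a test of the list. Among all 16090 tested genes 34% were called, 16.6% higher and 17.4% lower, with a median log2 fold change of −0.01. The counts of each list below are to be read beside these shares, and nothing is read from them about a list as a whole. Of 11 co-activators of beta-catenin 2 rose, 2 fell and 7 did not pass (median log2 fold change 0.07). TBL1X, which is recruited to WNT targets with beta-catenin, had 117 and 98.1 CPM in resistant libraries, against 63.1 and 66.5 CPM in untreated libraries (log2 fold change 0.73, edgeR adjusted p = 0.00619). CREBBP, a histone acetyltransferase, had a log2 fold change of −0.53 (adjusted p = 0.0221), and PYGO1, which binds beta-catenin through BCL9, one of 0.91 (adjusted p = 0.0316). EP300, the relative of CREBBP, did not pass (0.43, adjusted p = 0.0644), nor did the remodeller SMARCA4 (−0.41, adjusted p = 0.0831). CREBBP was not called without resistant replicate 1 or either untreated library, and PYGO1 without any of the 4 libraries in turn (adjusted p up to 0.131 for PYGO1 and 0.168 for CREBBP, from 0.0164 upward over the 12 alternatives of CREBBP and from 0.0182 for PYGO1). Only TBL1X was called without resistant replicate 1, without untreated replicate 1 or without untreated replicate 2.

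Among nuclear inhibitors of TCF and beta-catenin 2 rose, 5 fell and 5 did not pass of 12 tested (median −0.23). HDAC1, a histone deacetylase that works with TLE, had 123 and 141 CPM in resistant libraries, against 286.4 and 272.9 CPM in untreated libraries (−1.08, SE 0.16, adjusted p = 9.56e-04), and TLE6 fell as given above. HBP1, an HMG-box repressor, rose (0.89, adjusted p = 0.00228), and is uncertain because it overlaps COG5 on the opposite strand. TLE5, a short TLE protein that acts against the long ones, did not pass (−0.30, adjusted p = 0.182), nor did CTBP1, a co-repressor (0.17, adjusted p = 0.455). CTBP1 overlaps an antisense transcript, CTBP1-DT, on the opposite strand. Of 6 tested factors that recruit TLE by other routes 2 rose, 2 fell and 2 did not pass (median 0.33). RUNX1 had 50.8 and 51.7 CPM in resistant libraries, against 154 and 138 CPM in untreated libraries (−1.51, SE 0.16, adjusted p = 1.05e-04). HES4 rose (1.63, adjusted p = 6.87e-04), as did HES2 (1.34, adjusted p = 0.0115), while HES1 (0.50, adjusted p = 0.262) and RUNX2 (0.16, adjusted p = 0.757) did not pass. Without untreated replicate 1 RUNX1 and HES4 were called, and HES2 was not (0.96, adjusted p = 0.0600, range 4.43e-05 to 0.0600 over 12 alternatives).

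Of 10 genes of the beta-catenin destruction complex 1 rose, 4 fell and 5 did not pass (median −0.39). APC, the scaffold that is lost in many colorectal cancers, had 13.5 and 24.5 CPM in resistant libraries, against 45.2 and 41.1 CPM in untreated libraries (−1.18, SE 0.26, edgeR adjusted p = 0.00871). APC2, its relative, fell (−1.29, adjusted p = 0.00302), and AXIN2, a scaffold and a feedback target of the pathway, fell as well (−1.27, adjusted p = 0.0246). APC2 is uncertain because it overlaps C19orf25 and an antisense transcript on the opposite strand. The kinases CSNK1A1 (0.16, adjusted p = 0.457) and GSK3A (−0.45, adjusted p = 0.0515) did not pass, and CSNK1A1 shares exon sequence with the transcript AC021078.1 on the same strand. Without untreated replicate 1 only APC2 was called of these 10 (APC −1.09, adjusted p = 0.0702, range 2.05e-07 to 0.0702 over 12 alternatives), and 3 genes were called without either resistant library in turn. AXIN2 lost its call when resistant replicate 2 was left out (−0.89, adjusted p = 0.133, range 0.00217 to 0.133 over 12 alternatives).

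Of 21 genes known as WNT targets in other cells 16 were tested, of which 2 rose, 4 fell and 10 did not pass (median −0.27). BAMBI, a decoy receptor for TGF-beta family ligands, had 48.9 and 48.3 CPM in resistant libraries, against 5.14 and 3.37 CPM in untreated libraries (3.51, SE 0.24, edgeR adjusted p = 6.90e-06). EPHB2, an ephrin receptor, had 4.86 and 6.69 CPM in resistant libraries, against 27.1 and 29.6 CPM in untreated libraries (−2.29, SE 0.24, adjusted p = 1.03e-04). CCND1, cyclin D1, had 38.6 and 33.0 CPM in resistant libraries, against 188 and 151 CPM in untreated libraries (−2.24, SE 0.18, adjusted p = 1.98e-05). In counts these were 1118 and 1116, against 6941 and 5641. CCND1 overlaps LTO1 on the opposite strand, and is uncertain to the extent that it shares reads with LTO1. LTO1 had 681 and 745 counts in resistant and 640 and 577 in untreated libraries. CD44, the hyaluronan receptor, did not pass (0.21, adjusted p = 0.336), and nor did MYC (0.14, adjusted p = 0.601). LGR5, SP5 and ASCL2, targets of intestinal stem cells named after their values were seen, had too few counts to test. AXIN2 stands in this list too. Without untreated replicate 1, 3 target genes were called, namely BAMBI, CCND1 and EPHB2.

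Among cadherin and catenin partners of beta-catenin 1 of 5 tested genes rose and 4 did not pass (median 0.27). CTNND1, p120 catenin, was the riser (0.61, adjusted p = 0.0233), and the call ended without resistant replicate 2 or untreated replicate 1 (0.41, adjusted p = 0.172, and 0.58, adjusted p = 0.115, range 0.00537 to 0.172 over 12 alternatives). CTNNA1, alpha-catenin (−0.15, adjusted p = 0.494), and JUP, plakoglobin (−0.07, adjusted p = 0.853), did not pass. Of 19 WNT ligands 12 were tested, of which 4 rose, 1 fell and 7 did not pass (median 1.11). WNT9A had 9.32 and 5.68 CPM in resistant libraries, against 2.19 and 2.48 CPM in untreated libraries (1.68, SE 0.36, edgeR adjusted p = 0.00542). WNT16 (3.54, adjusted p = 0.00396) and WNT8B (−3.01, adjusted p = 0.0129) were called at levels below 1 CPM, WNT16 with 2 and 3 counts in the untreated libraries and WNT8B with 3 and 2 counts in the resistant ones. Each had enough counts to test only in the group where it was higher, so its direction was set beforehand. WNT8B was not called without untreated replicate 2 (−2.39, adjusted p = 0.150) or without resistant replicate 2 (−2.66, adjusted p = 0.0734), within a range of 0.00376 to 0.150 over 11 alternatives. WNT7B, named after its values were seen, had 78.6 and 29.1 CPM in resistant libraries, against 3.57 and 1.52 CPM in untreated libraries (4.40, SE 0.72, adjusted p = 0.0132). WNT7B was not called without untreated replicate 1 (5.16, adjusted p = 0.163) or untreated replicate 2 (3.90, adjusted p = 0.196), within a range of 6.60e-24 to 0.196 over 12 alternatives. Without resistant replicate 1 it stood at 3.52 on the log2 scale. WNT2B (1.09, adjusted p = 0.393) and WNT3 (−0.46, adjusted p = 0.285) did not pass, and WNT2B overlaps ST7L on the opposite strand. Without either untreated library in turn, 3 ligands were called in place of 5.

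As a check of the labelled cell type, the 9 markers of epithelial and pancreatic carcinoma cells summed to between 2192 and 2729 CPM in resistant libraries and between 4093 and 5795 CPM in untreated libraries. Most of this came from the keratins KRT8 and KRT18, whereas KRT7 and GATA6 stayed below 1 CPM in every library and CDH1, E-cadherin, lay between 0.622 and 1.21 CPM in resistant and between 0.641 and 0.867 CPM in untreated libraries. The 5 mesenchymal markers, mostly VIM and with CDH2 at 0 counts, summed to between 6738 and 7956 CPM in resistant and between 5619 and 6081 CPM in untreated libraries. Among leukocyte markers PTPRC, the common leukocyte antigen, had 0.104 and 0.0592 CPM in resistant libraries, against 0.0542 and 0.134 CPM in untreated libraries. CD68, a marker of myeloid cells, had 33.7 and 9.39 CPM in resistant libraries, against 10.3 and 13.7 CPM in untreated libraries. LYZ, lysozyme, had 0.414 and 0.237 CPM in resistant libraries, against 4.55 and 10.1 CPM in untreated libraries. CD3E, a T cell marker, had 0 counts in all libraries but untreated replicate 1, where it had 0.0271 CPM. TCF7 and LEF1 are abundant in T cells, and whether such cells were present was not tested. Of 3 endothelial markers 2 were matched, and they summed to between 0.977 and 5.83 CPM in resistant and between 4.22 and 8.42 CPM in untreated libraries. The 3 erythroid markers summed to between 0.178 and 0.414 CPM in resistant and between 1.44 and 1.66 CPM in untreated libraries. KRT8 had 962 and 1245.0 CPM in resistant libraries, against 3091 and 2076 CPM in untreated libraries, and KRT18 had 957 and 1222 CPM in resistant libraries, against 2282 and 1735 CPM in untreated libraries. Both were without overlap between groups. KRT18 was called lower with all libraries. It was not called without resistant replicate 1 (log2 fold change −0.70) or without untreated replicate 1 (−0.65). KRT19 overlapped between groups, with 133 and 151 CPM in resistant libraries, against 259.7 and 142 CPM in untreated libraries. Whether the difference in KRT8 and KRT18 bears on the results for the members was not tested.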

How the data were processed

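Polyadenylated RNA of 2 resistant and 2 untreated MIA-PaCa2 populations was sequenced. The authors deposited expected counts per Ensembl gene, 1 table for each library, not scaled to depth, per the file headers. Per the submitters' processing notes, the tools were RSEM 1.3.1 and STAR 2.7.2b, with build GRCh37. Annotation release and strand setting are not given in the sources used here. Whole numbers made up 93.6% of the values, and the others were rounded for the tests. Symbols came from a gene name table that named 39538 of 57773 identifiers. GENCODE 29, on another build, gave only chromosomes, gene order, exon lengths and overlaps, so RPKM are approximate. Promoters came from RefSeq (GRCh38.p14).

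Genes were kept with edgeR's filterByExpr (16090), scaled with TMM (factors 0.962 to 1.05) and compared by the quasi-likelihood F-test of edgeR (version 4.0.16, R 4.3.3). The fit was also run on simulated data with the same relative spread for every gene. The genes here differ in spread, so that run gives no assurance about the p-values. The SE is the size of the log2 fold change divided by the square root of F. Named genes were the 9 members, in each list the 3 called genes of lowest adjusted p at most and the 2 highest genes not called at most, and the 3 genes nearest to the member with the smallest adjusted p. Members and lists were chosen with earlier results of these data known. Depth bounds cover counting error only. A leukocyte marker and the list's sum are not reported here. Alternatives were other scalings and filters, a replicate block, libraries left out, DESeq2 1.42.0, limma-voom (limma 3.58.1), edgeR's newer quasi-likelihood form, a threshold of 0.01 and another gene length.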

Additional observations from a re-analysis of the deposited data

How the results depend on the processing

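Over 95 alternative fits of the 8 tested members, 90 kept the direction and the side of the threshold. TCF7 kept its call in each fit. LEF1 kept its call in each fit that tested it, but these fits reuse the same few counts. It had enough counts to test only through the resistant libraries, so its kept calls are no independent support for a rise. A filter of 1 CPM in 2 libraries left LEF1 untested. TLE4, with 0 counts, has no fold change in any fit. Leaving out 1 library at a time gave log2 fold changes of 0.58 to 0.86 for TCF7L1, −0.82 to −0.48 for CTNNB1, −2.700 to −0.48 for TLE1 and −0.12 to 0.016 for TLE3, which turned sign without resistant replicate 1, and 2 to 4 called members. Calls over all genes were 2832 to 5041 with 1 library left out, the fewest without untreated replicate 1, against 5463 with all 4, and fewer libraries entered those fits. A threshold of 0.01 gave 2832 calls (1444 higher and 1388 lower) and 2 called members. Called list genes with 1 library left out were 1 to 3 co-activators (4 with all libraries), 2 to 5 other factors that recruit TLE (4), 1 to 4 of the destruction complex (5), 3 to 6 WNT targets (6), 0 to 1 cadherin and catenin partners (1) and 3 to 5 WNT ligands (5). Among the nuclear inhibitors, calls were lost only by CHD8 without resistant replicate 1 (log2 fold change −0.57) and by CTBP2 without untreated replicate 1 (−0.51). The stricter filter called 3 ligands and tested fewer genes.

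With the longest transcript as gene length, TCF7 held 17.1% of the TCF/LEF sum in resistant and 90.0% in untreated cells, and TCF7L1 69.2% in resistant and 6.91% in untreated cells. TCF7L2 held 3.03% in untreated cells, and TLE1, TLE2 and TLE3 held 28.8%, 60.5% and 10.7% of the TLE sum in untreated cells. The shares change because the lengths do.

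The replicate numbers are shared by the groups, but the labels do not say that they pair samples. Same-numbered libraries deviated from their group means with a correlation of −0.06 across tested genes, which are not independent. A replicate block gave 5275 calls (2593 higher and 2682 lower) and 4 called members, and changed no call among the members.

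Depth limits LEF1 and TLE4, for which a few counts decide the value. The 2 libraries in each group limit the rest, and isoforms, protein levels and the use of alternative starts were not measured.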
